A study of Homo sapiens with 9 samples.

Results

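The genes described here are 10 members of the actin cytoskeleton: the cytoplasmic actins ACTB and ACTG1, the tropomyosins TPM1, TPM2 and TPM4, the calponin CNN2, the transgelin TAGLN, the myosin regulatory light chain MYL9, and the α-actinins ACTN1 and ACTN4. They were taken as a list of gene symbols, drawn up with earlier results of these data known, and each of the 10 was found among the 17911 genes of the deposited count table.

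Actin filaments are polymers of actin monomers that give a cell its shape and, together with myosin, its contractile force. Tropomyosins lie along the filament and set which myosins and severing proteins can reach it, α-actinins tie filaments into bundles, and calponins and transgelins stabilise them. Several of these genes, MYL9 and TAGLN among them, are known targets of the transcription factor SRF and its MRTF cofactors, which enter the nucleus when free actin monomer is scarce. In mesenchymal breast cancer cells these genes are known for their part in stress fibres, adhesion and migration.

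RNA was sequenced from 9 samples labelled as wild-type MDA-MB-231, which is a human triple-negative breast cancer cell line in wide use. They were 3 capsule samples, 3 small spheroid samples and 3 large spheroid samples. The labels do not say what a capsule is. Every sample, capsules included, carries the same description of its treatment. It gives liquid overlay, 5% Matrigel (a basement membrane gel), trastuzumab, an antibody against ERBB2, and RNA taken after 96 h. By these labels no sample in the series was without trastuzumab or Matrigel. All cells were kept in RPMI with 10% fetal bovine serum and antibiotics. The 3 capsule columns of counts each matched 1 sample by name. The other 6 columns carry no size: 3 are named L.O. and 3 are named Sph.WT. From their names both sets were tied to the spheroid samples as a whole, and which set holds the small and which the large spheroids is not known. The number of counts per library was 13212665 to 13735221 in capsules, 15525725 to 15988167 in the L.O. columns and 16605098 to 33263076 in the Sph.WT columns. Nothing in the labels says that replicates came from separate cultures, so the p-values below measure the spread between these libraries, which may be technical.

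The capsule and L.O. columns go against the MDA-MB-231 label and the Sph.WT columns do not. CDKN2A, a cell cycle inhibitor gene known to be deleted in MDA-MB-231, was present at 473 to 554 CPM (counts scaled to 1000000 per library) in capsules and 475 to 697 CPM in L.O. columns, against 0.631 to 0.855 CPM in Sph.WT columns. The surface receptor gene CD44, known as abundant in this line, stood at 1.97 to 2.57 CPM in capsules and 5.41 to 6.07 CPM in L.O. columns, against 803 to 882 CPM in Sph.WT columns. Over 14 genes that this line is known to express strongly, the summed level was 777 to 784 CPM in capsules and 1049 to 1165 CPM in L.O. columns, against 6440.4 to 6750.5 CPM in Sph.WT columns, with none at 0. For 8 genes known as abundant in HEK293 cells or neurons the order was the reverse, with sums of 2572 to 2741 CPM in capsules and 2483 to 2659.7 CPM in L.O. columns, against 54.5 to 64.2 CPM in Sph.WT columns, where NEFL was at 0, which allows up to 0.0902 to 0.181 CPM per library. Smooth muscle markers, 6 of which were in the table, summed to 76.7 to 82.5 CPM in capsules and 131 to 145 CPM in L.O. columns, against 31.7 to 36.5 CPM in Sph.WT columns. SMTN made up most of each sum, with means of 62.9 CPM in capsules, 94.9 CPM in L.O. columns and 22.6 CPM in Sph.WT columns. ACTA2 had another order of sets, with means of 2.66, 10.9 and 9.19 CPM. The 7 fibroblast markers in the table summed to 44.2 to 48.3 CPM in capsules and 92.7 to 104 CPM in L.O. columns, against 167 to 198 CPM in Sph.WT columns. Different genes carried these sums. COL1A1 averaged 38.9 CPM in capsules and 86.3 CPM in L.O. columns, against 13.2 CPM in Sph.WT columns. COL1A2 averaged 0.471 and 0.359 CPM, against 148 CPM. COL1A2 and THY1 had higher means in capsules than in L.O. columns, both under 1 CPM. Sums for 3 endothelial and 2 immune markers were 0.515 to 0.984 and 7.58 to 10.1 CPM in capsules, 1.54 to 2.63 and 26.7 to 30.6 CPM in L.O. columns, and 5.96 to 10.3 and 80.4 to 102 CPM in Sph.WT columns. The immune sum was nearly all CD68, with means of 8.54, 26.7 and 90.4 CPM in the same order of sets. ITGAM, the other immune marker, had 0.371, 1.59 and 0.217 CPM. The file names in the column headers also differ in form between the Sph.WT columns and the other 6. Culture format, marker profile and form of the header therefore cannot be told apart in any comparison with the Sph.WT columns, and capsules against L.O. columns is the comparison within 1 form of header. Those sets differ in markers as well: the sums of the HEK293 or neuronal genes overlap between them, while those of the MDA-MB-231, smooth muscle, fibroblast, endothelial and immune genes are lower in capsules than in L.O. columns without overlap. Single HEK293 or neuronal genes went both ways. NEFM averaged 438 CPM in capsules against 345 CPM in L.O. columns, and LIN28B 56.8 against 41.4 CPM. TUBB2B averaged 222 against 281 CPM and INA 89.2 against 106 CPM. The ranges of these genes were separate, and those of the other members overlapped.

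ACTB and ACTG1 encode nearly the same protein from genes on different chromosomes, and their reads can be told apart where the genes differ, mostly at silent positions and outside the coding sequence. The first 60 coding bases of each gene are shown for that reason, read from the GRCh38 genome with GENCODE annotation, ACTB at chr7:5529598-5529657 and ACTG1 at chr17:81512295-81512354, both on the minus strand. Capitals mark the 10 bases that differ between the genes.
ACTB: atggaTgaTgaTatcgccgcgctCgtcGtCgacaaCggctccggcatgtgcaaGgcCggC
ACTG1: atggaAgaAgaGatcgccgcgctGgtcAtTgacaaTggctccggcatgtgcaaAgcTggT
Over the whole coding length of 1128 bases the genes differed at 99 positions, an identity of 91.2%, and the longest identical run was 59 bases. Of all 50-base windows in the principal transcript, 0.534% in ACTB and 0.453% in ACTG1 were shared with another of the 10 genes. The α-actinins shared 0.912% of windows in ACTN1 and 0.692% in ACTN4, and no window of the other 6 genes was shared. Counts of 10 other actin genes and actin pseudogenes in the table summed to 17.8 to 19.3 CPM in capsules, 17.1 to 20.6 CPM in L.O. columns and 9.09 to 9.61 CPM in Sph.WT columns, small beside the levels of both actins. How reads that fit several genes were counted is not given in the sources used here.

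Promoter windows of 7 of the 10 genes were found in the RefSeq table for GRCh38.p14, which holds 250 bases before and 50 after a gene's start. ACTB, MYL9 and TAGLN were not among them. Only the 250 bases before the start were searched, for this and for the other motifs below. A CArG box, the motif that SRF binds and that reads the same on both strands, was found in 4 of the 14 windows of these 7 genes, 1 window in each of 4 genes. It was found in 1.16% of all 35116 windows in the table. The stretch around each box is shown because SRF targets are among the gene groups described further on, with the box in capitals.
ACTG1: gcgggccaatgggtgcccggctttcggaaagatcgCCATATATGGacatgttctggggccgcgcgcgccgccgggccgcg
ACTN1: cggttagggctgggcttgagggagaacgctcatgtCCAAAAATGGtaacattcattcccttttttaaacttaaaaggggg
CNN2: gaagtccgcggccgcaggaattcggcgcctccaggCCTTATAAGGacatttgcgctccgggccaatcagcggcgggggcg
TPM4: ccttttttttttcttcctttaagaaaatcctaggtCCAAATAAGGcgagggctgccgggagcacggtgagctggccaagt
These stretches lie at chr17:81512849-81512928 for ACTG1 and chr14:68977693-68977772 for ACTN1, both on the minus strand, and at chr19:1026484-1026563 for CNN2 and chr19:16067330-16067409 for TPM4, both on the plus strand. The first base of the box lay 94 bases before the start in ACTG1, 171 in ACTN1, 89 in CNN2 and 173 in TPM4. The ACTN1 window belongs to a start within the span of the gene. The TEAD motif GGAATG on either strand was found in 11.9% of all windows and, of these genes in ACTN1 alone. TATAAA on either strand was found in 10.7% of all windows and in ACTN1 alone of these genes. A match describes the letters in the window and shows no binding.

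Together the 10 genes took 0.540% ± 0.0146 of all counts in capsules and 0.639% ± 0.0350 in L.O. columns, against 1.00% ± 0.0163 in Sph.WT columns (SD, n = 3 each). Both actins made up most of that, at 0.459% ± 0.0119 in capsules, 0.538% ± 0.0319 in L.O. columns and 0.723% ± 0.0125 in Sph.WT columns. In RNA from whole cultures, fewer cells of a type and less RNA per cell cannot be told apart. When capsules were set against all 6 spheroid columns with edgeR's quasi-likelihood test, 1 of the 10 genes fell and none rose at an adjusted p under 0.05, where 1.47% of the 16985 genes tested fell and 2.3% rose. The gene that fell was TPM2. The median log2 fold change of the 10 genes was -1.29, against -0.06 over all genes tested. The 6 spheroid columns were far apart: the common biological coefficient of variation was 65.9% in this fit, against 6.04% within capsules, 8.35% within L.O. columns and 8.14% within Sph.WT columns.

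Taken by column set, the same genes gave a different count. Against L.O. columns, 5 of the 9 genes that passed the filter on low counts fell in capsules and none rose, where 25.4% of all 15919 genes tested fell and 24.7% rose. Their median log2 fold change was -0.17, against -0.01 over all genes. These differences moved with the marker sums that are lower in capsules than in L.O. columns, whose part in them was not tested. Against Sph.WT columns 10 of 10 fell in capsules, where 42.9% of all genes fell and 43.2% rose, with a median of -1.83 against 0.01 over all genes. L.O. columns set against Sph.WT columns likewise had 10 of 10 lower, where 43.1% of all genes were lower and 42.4% higher, with a median of -1.75 against -0.01. These comparisons share libraries, so their counts are not independent of each other. Scaling by library totals in place of TMM moved the median of all genes by -0.15 for capsules over L.O. columns, by 0.28 for capsules over Sph.WT columns and by 0.46 for L.O. over Sph.WT columns. With library totals the 10 of 10 for L.O. over Sph.WT columns did not hold: ACTG1 turned sign and neither ACTG1 nor TAGLN passed the test, as given below. Fold changes below are on the TMM scale, and levels in CPM are scaled by library totals, so that the pair can differ where a change is small.

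**Figure D1:**
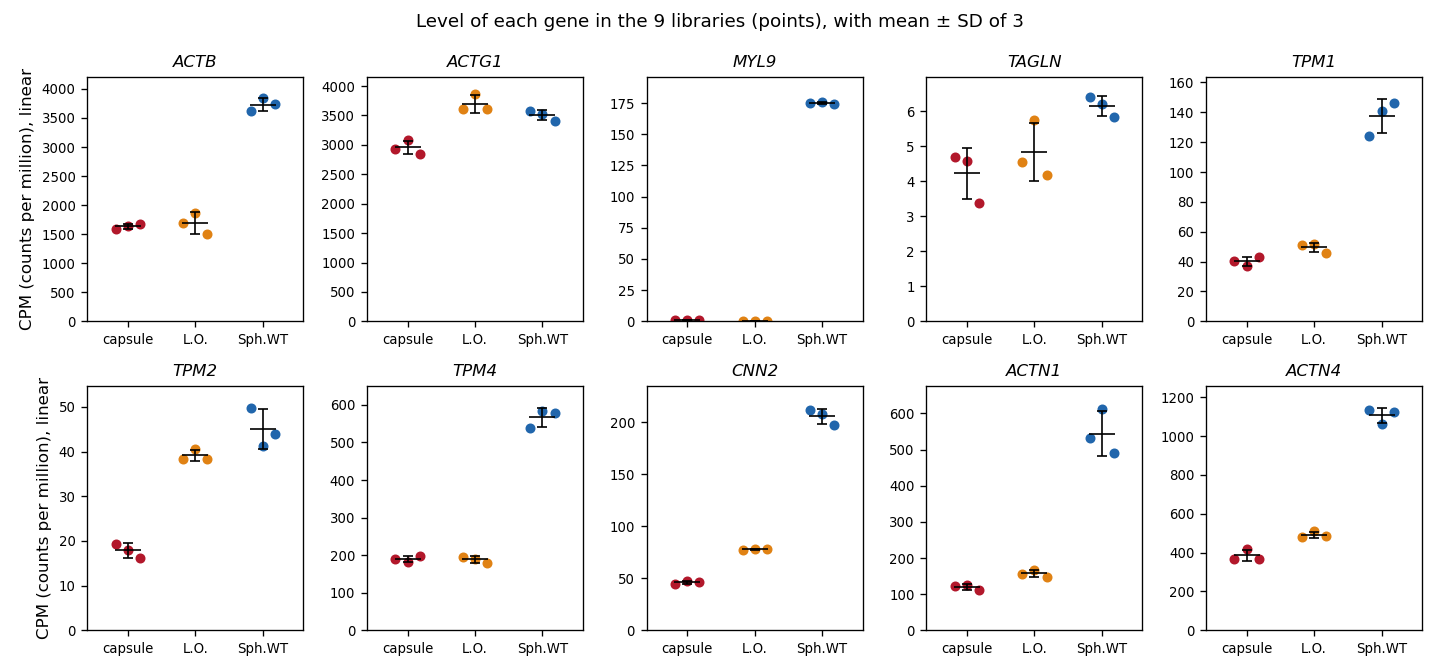
Level of each of the 10 genes in CPM on linear axes that start at 0, 1 point per library, with the mean and SD of 3 libraries in black; capsules, L.O. columns and Sph.WT columns run from left to right. MYL9 stands at 0.681 to 1.40 CPM in capsules and 0.193 to 0.448 CPM in L.O. columns, against 174 to 176 CPM in Sph.WT columns, while ACTG1 lies between 2851 and 3864 CPM in all 9 libraries.

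ACTB, the β-actin of the cytoplasm and often used as a reference gene, had 1587, 1645 and 1674 CPM in capsules and 1698, 1869.6 and 1506 CPM in L.O. columns, against 3612, 3844 and 3734 CPM in Sph.WT columns. Capsules and L.O. columns overlapped, and both lay below every Sph.WT column. The log2 fold change of capsules over L.O. columns was 0.10 with an SE of 0.08 (edgeR adjusted p = 0.309), and that of capsules over Sph.WT columns was -1.47 with an SE of 0.06 (adjusted p = 3.64e-14), which is 2.76-fold lower. Against all 6 spheroid columns the value was -0.91 with an SE of 0.50 (adjusted p = 0.253).

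ACTG1, the γ-actin of the cytoplasm, had 2934, 3083 and 2851 CPM in capsules and 3602, 3864 and 3605 CPM in L.O. columns, against 3569.6, 3533 and 3411 CPM in Sph.WT columns. Capsules were below all 6 other libraries, and the L.O. and Sph.WT columns were separated by little. In capsules ACTG1 fell against L.O. columns by 0.17 on the log2 scale, with an SE of 0.07 and an edgeR adjusted p of 0.0489, a call that was lost with RLE size factors (0.0577), with no filter on low counts (0.0664) and without capsule 1 (0.136), capsule 3 (0.173), L.O. 1 (0.0508) or L.O. 2 (0.162). It also fell in capsules against Sph.WT columns, with a log2 fold change of -0.52 and an SE of 0.06 (adjusted p = 2.73e-07). For L.O. over Sph.WT columns the value was -0.39 on the TMM scale (adjusted p = 1.57e-05) and 0.07 with library totals (adjusted p = 0.281), so the direction of that difference depends on the scaling.

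The ratio of ACTG1 to ACTB counts needs no scaling between libraries. It was 1.85, 1.87 and 1.70 in capsules and 2.12, 2.07 and 2.39 in L.O. columns, against 0.988, 0.919 and 0.913 in Sph.WT columns. The sets did not overlap: ACTG1 counts exceeded ACTB counts in every capsule and L.O. library and fell below them in every Sph.WT library. Means were 1.81 ± 0.0923 in capsules, 2.19 ± 0.175 in L.O. columns and 0.940 ± 0.0417 in Sph.WT columns (SD, n = 3 each). Per kilobase of principal transcript the mean ratio was 1.54 in capsules and 1.87 in L.O. columns, against 0.801 in Sph.WT columns. With exons of all transcripts joined it was 2.13 in capsules and 2.58 in L.O. columns, against 1.11 in Sph.WT columns, so whether γ-actin exceeds β-actin in Sph.WT columns depends on the length used. Capsules minus all 6 spheroid columns gave a mean difference of 0.33 in the log2 ratio (two-sided exact permutation test, p = 0.476; adjusted over 5 ratios, 0.595), since capsules lay between both sets. The difference was -0.28 against L.O. columns and 0.94 against Sph.WT columns, and 1.22 for L.O. minus Sph.WT columns. Each of these had an exact permutation p of 0.1, the smallest that 3 libraries against 3 can give.

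**Figure D2:**
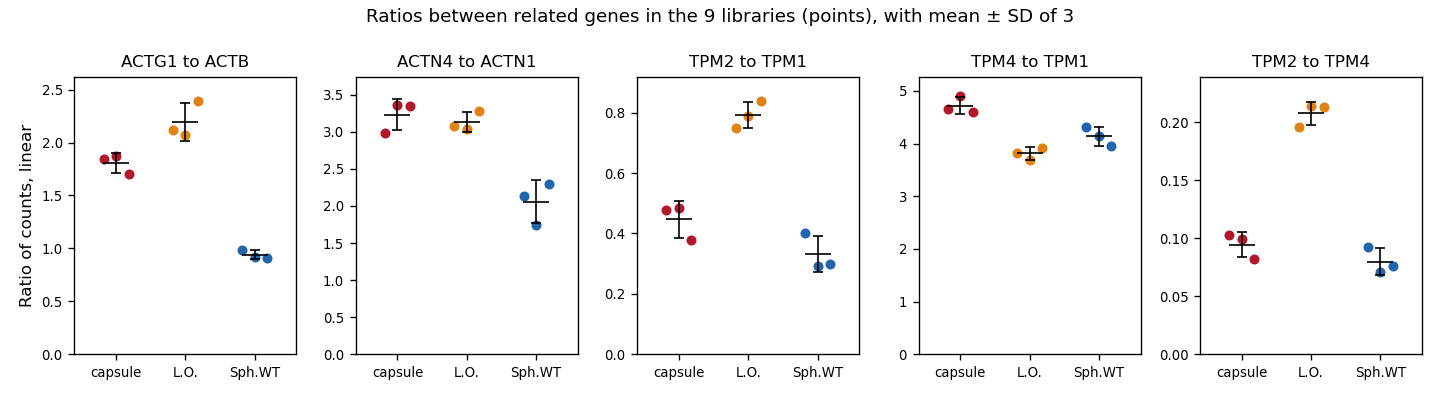
Ratio of counts of related genes in each library on linear axes that start at 0, 1 point per library, with the mean and SD of 3 libraries in black; capsules, L.O. columns and Sph.WT columns run from left to right. ACTG1 to ACTB averages 1.81 in capsules and 2.19 in L.O. columns, against 0.940 in Sph.WT columns, and TPM2 to TPM4 averages 0.0946 in capsules, 0.208 in L.O. columns and 0.0798 in Sph.WT columns.

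Of the tropomyosins, which coat actin filaments, TPM2 differed most between capsules and L.O. columns. TPM2, the β-tropomyosin, had 19.4, 18.1 and 16.2 CPM in capsules and 38.5, 40.6 and 38.4 CPM in L.O. columns, against 49.9, 41.3 and 44.0 CPM in Sph.WT columns. All capsules lay below all 6 other libraries, and all L.O. columns below all Sph.WT columns. TPM2 fell in capsules 1.98-fold against L.O. columns (log2 fold change -0.98, SE 0.10, adjusted p = 1.54e-07) and 3.04-fold against Sph.WT columns (-1.61, SE 0.10, adjusted p = 1.39e-11). Against all 6 spheroid columns together the value was -1.35 with an SE of 0.24 and an adjusted p of 0.0263, the call noted above. That call was lost when any 1 capsule library was left out (adjusted p of 0.134 to 0.167) or any 1 Sph.WT library (0.0529 to 0.0620).

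TPM1, the α-tropomyosin, had 40.6, 37.2 and 42.9 CPM in capsules and 51.3, 51.5 and 45.9 CPM in L.O. columns, against 124, 141 and 146 CPM in Sph.WT columns. The sets did not overlap in CPM, but the edgeR difference between capsules and L.O. columns did not pass the test (log2 fold change -0.15, SE 0.08, adjusted p = 0.133). It did with library totals (-0.30, adjusted p = 0.00634) and without L.O. 3 (-0.21, adjusted p = 0.0410). In capsules TPM1 fell 4.13-fold against Sph.WT columns (-2.05, SE 0.08, adjusted p = 1.70e-14).

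TPM4, a tropomyosin of non-muscle cells found on stress fibres, had 189, 182 and 197 CPM in capsules and 196, 189.9 and 180.0 CPM in L.O. columns, against 538, 585 and 578 CPM in Sph.WT columns. Capsules and L.O. columns overlapped, with a log2 fold change of 0.15 and an SE of 0.07 (adjusted p = 0.0716, and 0.0481 without L.O. 1). In capsules TPM4 fell 3.62-fold against Sph.WT columns (-1.86, SE 0.07, adjusted p = 3.17e-15).

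The tropomyosins did not keep their proportions between sets. TPM2 to TPM1 counts stood at 0.447 ± 0.0602 in capsules and 0.792 ± 0.0435 in L.O. columns, against 0.331 ± 0.0603 in Sph.WT columns (SD, n = 3 each). For TPM2 to TPM4 the values were 0.0946 ± 0.0110 in capsules and 0.208 ± 0.0101 in L.O. columns, against 0.0798 ± 0.0115 in Sph.WT columns. L.O. columns were the highest in both ratios, and capsules overlapped Sph.WT columns in both. TPM4 to TPM1 was 4.72 ± 0.162 in capsules and 3.81 ± 0.118 in L.O. columns, against 4.14 ± 0.184 in Sph.WT columns. Capsules were above all 6 spheroid libraries in that ratio, by 0.25 in the log2 ratio, with an exact permutation p of 0.0238, the smallest that 3 against 6 allows, and 0.119 when adjusted over the 5 ratios. Exons of TPM1 overlap 2 genes on the opposite strand, and those of TPM4 overlap 1. Reads of such genes cannot be separated, since strand handling is not given in the sources used here.

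CNN2, the calponin of non-muscle cells, which binds actin and slows myosin, had 44.9, 47.5 and 46.6 CPM in capsules and 77.2, 77.9 and 78.6 CPM in L.O. columns, against 212, 208 and 197 CPM in Sph.WT columns. The 3 sets were separate, with a coefficient of variation of 2.92% in capsules, 0.908% in L.O. columns and 3.58% in Sph.WT columns. The values in capsules and L.O. columns are below what counting error alone would give on average. In capsules CNN2 fell 1.52-fold against L.O. columns (log2 fold change -0.60, SE 0.07, adjusted p = 2.05e-06) and 5.37-fold against Sph.WT columns (-2.43, SE 0.07, adjusted p = 1.80e-16). Exons of CNN2 overlap 1 gene on the opposite strand.

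TAGLN, the transgelin known as an early smooth muscle protein and a marker of contractile cells, was low throughout. It had 4.69, 4.59 and 3.38 CPM in capsules and 4.54, 5.75 and 4.19 CPM in L.O. columns, against 6.39, 6.19 and 5.84 CPM in Sph.WT columns. Capsules and L.O. columns overlapped (log2 fold change -0.05, SE 0.19, adjusted p = 0.848), and the sign turned to 0.10 without capsule 3 and 0.09 without L.O. 2. Both sets lay below Sph.WT columns, with log2 fold changes of -0.82 for capsules (SE 0.17, adjusted p = 1.53e-04) and -0.81 for L.O. columns (SE 0.17, adjusted p = 9.37e-05). For L.O. over Sph.WT columns the value was -0.35 with an adjusted p of 0.0546 under library totals. TAGLN overlaps PCSK7 on the opposite strand, so reads of the 2 genes may be mixed at this low level.

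MYL9 encodes the regulatory light chain whose phosphorylation switches on myosin II in smooth muscle and non-muscle cells. Its counts were 9, 16 and 19 in capsules and 7, 7 and 3 in L.O. columns, against 3487, 5845 and 2896 in Sph.WT columns. In CPM that was 0.681, 1.16 and 1.40 in capsules and 0.448, 0.438 and 0.193 in L.O. columns, against 175, 176 and 174 in Sph.WT columns. MYL9 had 19 counts or fewer in each capsule and L.O. library and about 175 CPM in each Sph.WT library. No other gene of the 10 had so wide a gap. Its coefficient of variation in Sph.WT columns was 0.398%. Counting error alone would give more on average, so that value does not measure reproducibility. The edgeR log2 fold change of capsules over Sph.WT columns was -7.60 with an SE of 0.13 (adjusted p = 6.88e-20). That of L.O. over Sph.WT columns was -9.35 with an SE of 0.16 (edgeR adjusted p = 3.11e-23). At 3 to 19 counts a library in capsules and L.O. columns, counting error alone exceeds both of these SE, which were derived from the F statistic. In capsules against L.O. columns MYL9 did not pass the filter on low counts, so the main fit did not test it. Every capsule had more CPM than every L.O. column. MYL9 was tested and called with no filter on low counts and in each fit with 1 library left out. Against all 6 spheroid columns its log2 fold change was -6.65 with an SE of 2.78 (adjusted p = 0.161).

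The α-actinins crosslink filaments at focal adhesions and along stress fibres. ACTN1 had 123, 125 and 111 CPM in capsules and 155, 168 and 149 CPM in L.O. columns, against 531, 612 and 489 CPM in Sph.WT columns. ACTN4 had 367, 419.8 and 369.8 CPM in capsules and 478, 509.5 and 488 CPM in L.O. columns, against 1134, 1063 and 1126 CPM in Sph.WT columns. For both genes the 3 sets were separate, in the order capsules, L.O. columns, Sph.WT columns.

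Against L.O. columns ACTN1 fell in capsules by 0.25 on the log2 scale (SE 0.08, adjusted p = 0.00986) and ACTN4 by 0.20 (SE 0.07, adjusted p = 0.0242). Both calls were lost without capsule 3 (adjusted p of 0.0745 for ACTN1 and 0.113 for ACTN4) or without L.O. 2 (0.0702 and 0.0941), and that of ACTN4 also without capsule 1 (0.133). Against Sph.WT columns ACTN1 fell in capsules 5.52-fold (-2.46, SE 0.09, adjusted p = 2.98e-15) and ACTN4 3.48-fold (-1.80, SE 0.07, adjusted p = 8.49e-15). The ratio of ACTN4 to ACTN1 counts was 2.99, 3.36 and 3.34 in capsules and 3.08, 3.03 and 3.29 in L.O. columns, against 2.14, 1.74 and 2.30 in Sph.WT columns. Capsules and L.O. columns overlapped in that ratio and both lay above Sph.WT columns. ACTN4 overlaps CAPN12 on the opposite strand, and ACTN1 overlaps HMGN1P3 on the same strand.

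**Figure D3:**
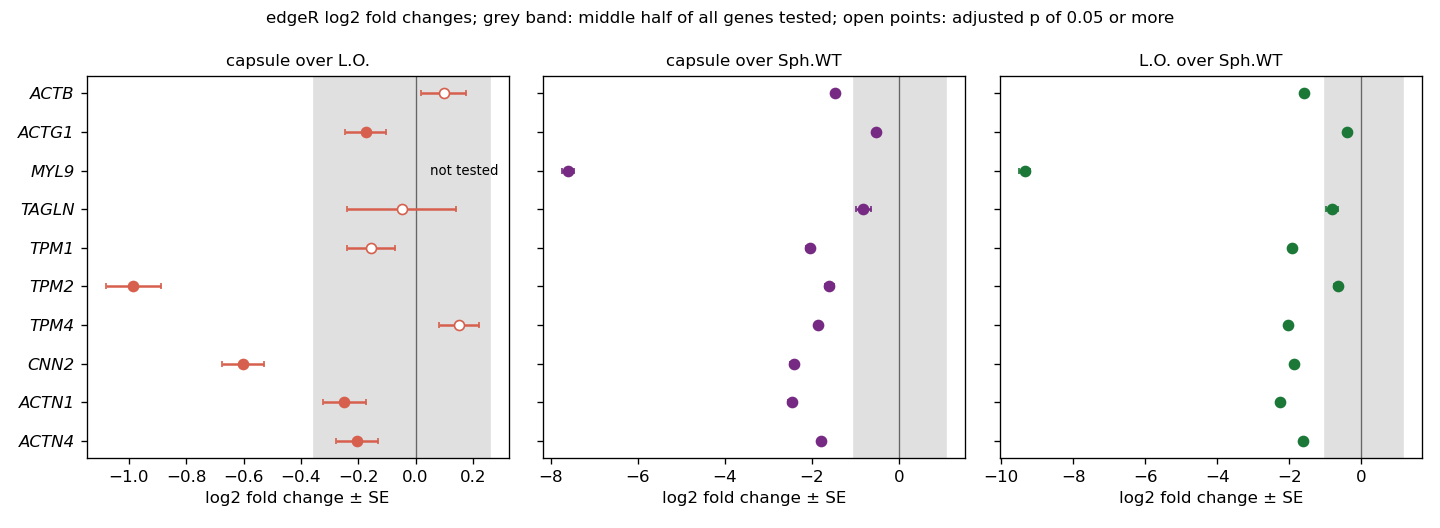
The edgeR log2 fold change of each gene with its SE, for capsules over L.O. columns, capsules over Sph.WT columns and L.O. over Sph.WT columns; the grey band spans the lower to the upper quartile of all genes tested, open points did not pass an adjusted p of 0.05, and horizontal scales differ between panels. For capsules over L.O. columns TPM2 at -0.98 and CNN2 at -0.60 lie below the lower quartile of -0.35, and the other 7 genes tested lie within the band.

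Per kilobase of principal transcript, which lets genes be compared with each other, ACTG1 was the most abundant in capsules at 1310.3 CPM per kb and in L.O. columns at 1636 CPM per kb, while ACTB was first in Sph.WT columns at 1942 CPM per kb. The level of ACTB was 851 CPM per kb in capsules and 880.4 CPM per kb in L.O. columns, and that of ACTG1 in Sph.WT columns was 1553 CPM per kb. Both actins stood above the other 8 genes in each set.

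ACTN4 and TPM4 came next, at 77.7 and 74.6 CPM per kb in capsules, 99.1 and 74.3 in L.O. columns, and 223.2 and 223.3 in Sph.WT columns. Those neighbours overlapped in capsules and in Sph.WT columns and not in L.O. columns. TPM1 and ACTN1 followed at 38.3 and 31.6 CPM per kb in capsules, 47.2 and 41.6 in L.O. columns, and 131 and 144 in Sph.WT columns, with overlap in L.O. and Sph.WT columns. CNN2 stood at 21.3 CPM per kb in capsules, 35.7 in L.O. columns and 94.4 in Sph.WT columns, and TPM2 at 12.8 in capsules, 28.1 in L.O. columns and 32.4 in Sph.WT columns.

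At the low end, TAGLN was at 1.95 CPM per kb in capsules and 2.23 in L.O. columns, above MYL9 at 0.383 in capsules and 0.127 in L.O. columns, while in Sph.WT columns MYL9, at 62.1 CPM per kb, was above TPM2 and TAGLN was last at 2.84. The order rests on the length chosen: TPM1 has a principal transcript of 1049 bases but 12876 bases of joined exons, and by joined exons it fell to rank 8 in capsules and L.O. columns and rank 9 in Sph.WT columns.

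**Figure D4:**
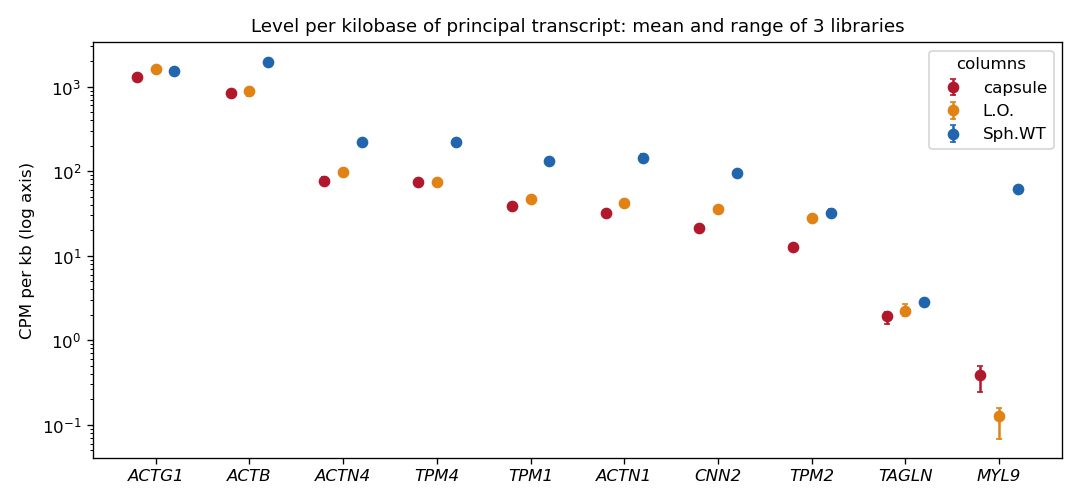
Level per kilobase of principal transcript on a log axis, with the mean of 3 libraries as the point and the lowest and highest library as the bar, genes ordered by their level in capsules; for each gene capsules, L.O. columns and Sph.WT columns run from left to right. ACTG1 leads in capsules at 1310.3 CPM per kb, and MYL9 is last in capsules and L.O. columns but at 62.1 CPM per kb in Sph.WT columns.

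Other genes of the actin cytoskeleton were taken from 8 lists. Between capsules and L.O. columns most of these lists had genes that rose and genes that fell, beside the 24.7% of all genes that rose and the 25.4% that fell. Of the crosslinkers and membrane linkers 12 of 26 genes fell and 3 rose in capsules, with a median log2 fold change of -0.18 against -0.01 over all genes. Its largest changes were in PDLIM4, a LIM protein of stress fibres (-0.83), the bundling protein FSCN1 (-0.66) and the filamin FLNC (-0.60). The muscle actins ACTA2 and ACTA1 fell, with log2 fold changes of -1.88 and -0.57, ACTA2 having 2.66 CPM in capsules against 10.9 CPM in L.O. columns. CNN1, the calponin of smooth muscle, fell by 2.64, with 0.765 CPM in capsules against 5.31 CPM in L.O. columns. Smooth muscle markers, of which ACTA2 and CNN1 are part, were lower in capsules than in L.O. columns as a sum. That sum was mostly SMTN, as given above, and the part of cell type in these differences was not tested.

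Among non-muscle myosin and its regulators 5 of 14 genes rose and 3 fell in capsules against L.O. columns, the largest changes being in the small GTPase genes RHOC (-0.88) and RHOB (-0.76) and the heavy chain gene MYH14 (-0.45). Actin turnover genes had 7 of 22 higher and 4 lower, among them CORO1B, an Arp2/3 regulator (-0.50), LIMK2, a kinase of cofilin (-0.49), and CAPZA1, a subunit of capping protein (0.47). Of the formins and Ena/VASP proteins 2 of 13 rose and 3 fell, with FMNL1 at -0.87, VASP at -0.66 and DIAPH2 at 0.49. The Arp2/3 complex and its activators, which start branched filaments, had 2 of 20 higher and 2 lower, with CYFIP2 at -0.47, ACTR3 at 0.35 and ARPC1B at -0.27. Other tropomyosins, calponins and transgelins had 3 of 9 higher and 3 lower, the lower ones being CNN1 and the genes of filament end binding proteins LMOD1 (-0.65) and TMOD1 (-0.56). SRF, its cofactors and known targets had 3 of 14 higher and 3 lower, with TGFB1I1 at 6.43 CPM in capsules against 14.3 CPM in L.O. columns, and EGR1, an immediate early gene, at a log2 fold change of 0.98. SRF itself rose by 0.22 on the log2 scale in capsules and MRTFA fell by 0.30 (adjusted p = 0.0250 and 0.00180).

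**Figure D5:**
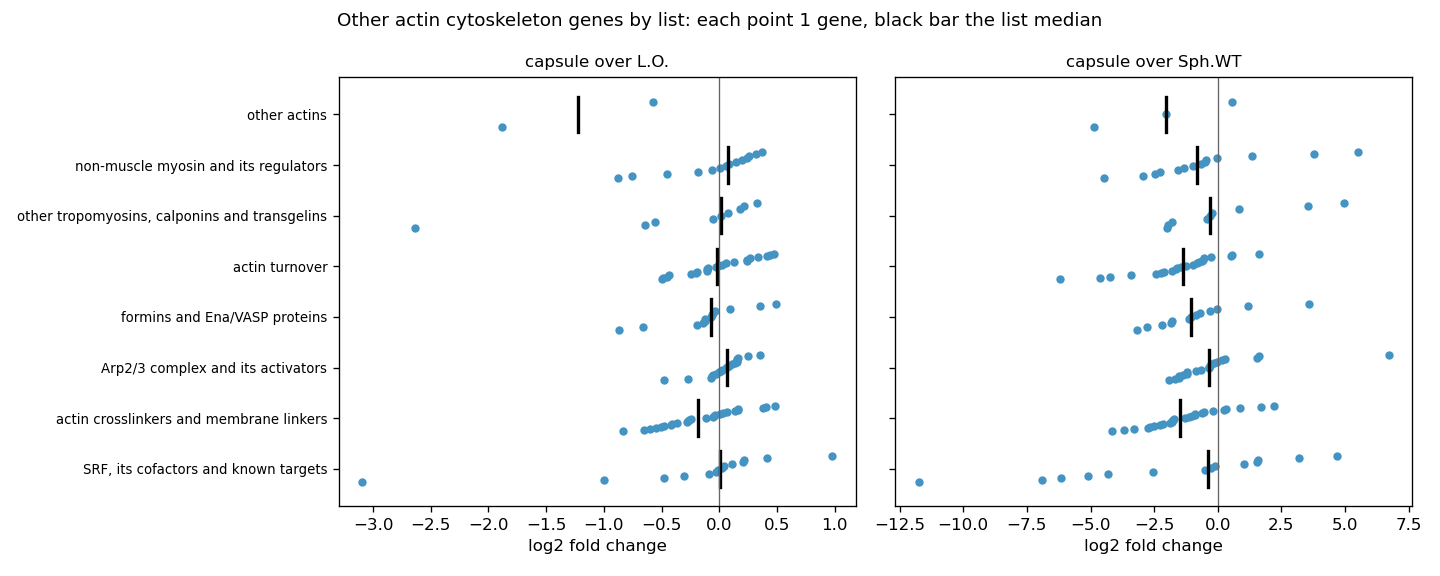
The edgeR log2 fold changes of other actin cytoskeleton genes in 8 lists, 1 point per gene tested with the list median as a black bar, for capsules over L.O. columns and capsules over Sph.WT columns, whose horizontal scales differ. Crosslinkers and membrane linkers have a median of -0.18 against L.O. columns and -1.50 against Sph.WT columns, and actin turnover genes have -0.02 against L.O. columns and -1.36 against Sph.WT columns.

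Against Sph.WT columns more genes of these lists fell than rose in capsules, beside the near-even 42.9% lower and 43.2% higher over all genes. Actin turnover genes had 19 of 22 lower and 3 higher, with a median of -1.36 against 0.01 over all genes. TMSB4X, which holds actin monomers, was at 30.6 CPM in capsules against 1856 CPM in Sph.WT columns (log2 fold change -6.19), and the capping and severing proteins CAPG and GSN were at -4.64 and -4.24. Crosslinkers and membrane linkers had 21 of 26 lower and 4 higher, led by SVIL (-4.15), LASP1 (-3.70) and LCP1 (-3.29). FLNA, the most widely expressed filamin, was at 651 CPM in capsules against 3382 CPM in Sph.WT columns.

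Non-muscle myosin and its regulators had 10 of 14 lower and 3 higher in capsules. The kinase MYLK, which phosphorylates regulatory light chains such as MYL9, fell by 4.45 on the log2 scale, and the light chain genes MYL12A and MYL12B, close relatives of MYL9, fell with values of -2.93 and -2.45. Their levels were 57.6 and 80.8 CPM in capsules against 363 and 364 CPM in Sph.WT columns, so regulatory light chain transcripts were present in capsules beside the few counts of MYL9. MYH14 rose by 5.51 and RHOB by 3.79, and the heavy chain MYH9 fell by 2.26. Formins and Ena/VASP proteins had 10 of 13 lower and 2 higher, with EVL at 3.57, FMNL1 at -3.16 and FMNL2 at -2.79. The Arp2/3 complex and its activators had 13 of 20 lower and 5 higher, with CYFIP2 at 6.72, ARPC1B at -1.90 and WASL at -1.70.

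Other tropomyosins, calponins and transgelins had 5 of 9 lower and 2 higher in capsules against Sph.WT columns. TMOD1 and LMOD1, which bind filament ends, rose by 4.96 and 3.56, and TMOD3 fell by 1.99. Of the other actins, ACTC1 and ACTA2 fell, with values of -4.86 and -2.02 and levels of 0.148 and 2.66 CPM in capsules against 3.77 and 9.19 CPM in Sph.WT columns. SRF, its cofactors and known targets had 8 of 14 lower and 5 higher. Among them ANKRD1 and CSRP1 fell, with log2 fold changes of -6.93 and -6.16. SRF fell by 0.52 and MRTFA rose by 1.04. All of these differences moved with the MDA-MB-231 and HEK293 or neuronal markers, whose part in them cannot be told apart from that of culture format.

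When capsules were set against all 6 spheroid columns, 5 of the 121 genes of these lists fell and none rose, beside 1.47% of all genes that fell and 2.3% that rose. The count was 0 without any 1 capsule library, 1 without any 1 Sph.WT library and 3 without L.O. 2 or L.O. 3. The 5 genes were ACTA2 (log2 fold change -1.99, adjusted p = 0.0150), RHOC (-1.28, adjusted p = 0.0338), VASP (-0.89, adjusted p = 0.0364), FLNC (-0.83, adjusted p = 0.0364) and PDLIM7, a LIM protein that binds tropomyosin (-0.56, adjusted p = 0.0466).

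Of 10892 genes with a mean of at least 10 CPM, those whose log2 level followed ACTB most closely over the 9 libraries were MAP4, a microtubule-associated protein, SMARCA2, a chromatin remodelling ATPase, and KIF13A, a kinesin, with Pearson r of 0.999, 0.998 and 0.998. MAP4 had 301 CPM in capsules and 311 CPM in L.O. columns, against 520.2 CPM in Sph.WT columns. TAGLN was followed most closely by ZNF251, VPS26B and BET1L, with r of 0.928, 0.912 and 0.897. These values are a description: the 9 points share libraries and fall into 3 sets of columns.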

How the data were processed

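The values are read counts per gene, whole numbers with no normalization, deposited by the authors as 1 table of 17911 genes and 9 columns. featureCounts and limma are among the tools, and hg38 is the build, per the submitters' processing notes. The aligner, annotation, strand setting and treatment of multi-mapping reads are not given in the sources used here. Columns were matched to samples by name, as set out above, and no column was left out.

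CPM are counts per 1000000 counts of the library. Differences were tested in R 4.3.3 with edgeR 4.0.16 (quasi-likelihood F test, TMM scaling, filterByExpr, Benjamini-Hochberg adjustment over all genes tested, threshold 0.05), fitted on the whole table: capsules against all 6 spheroid columns as planned, and capsules against each set of 3. The L.O. and Sph.WT columns were compared in a fit with 3 levels over 9 libraries. Reporting capsules against each set as comparisons of their own was decided after the data had been seen. The SE of an edgeR fold change is the absolute log2 fold change divided by the square root of the F statistic. At low counts it can understate the error. Ratios were tested on the log2 scale by exact permutation, with adjustment over 5 ratios. DESeq2 1.42.0 and limma 3.58.1 (voom) served as alternatives, and the edgeR step was tested on simulated counts with known changes. Ratios, levels and figures came from Python 3.11.15 with scipy 1.17.1, pandas 2.3.3 and numpy 2.4.6.

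Lengths are those of the principal transcript and of the joined exons in GENCODE release 29, known for 17131 genes (95.6%). Floors (3 counts) account for counting error alone, because the labels name no molecular identifiers and reads are then not independent molecules. No 2 libraries held identical values: within a set, 1203 to 5055 genes differed beyond counting noise between any pair.

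The 10 genes and the lists were chosen with earlier results of these data known. All 10 are named. Of each list the genes with the 3 largest absolute log2 fold changes among those called are named, with up to 3 others where a sentence needs them, except that 1 is not reported here. Similar patterns are the 3 genes with the highest Pearson r of log2(CPM + 0.5) with ACTB or TAGLN.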

Additional observations from a re-analysis of the deposited data

How the results depend on the processing

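The comparison of capsules with all 6 spheroid columns depended on the processing. Its count of the 10 genes called was 1, with 5 under DESeq2, 10 with 3 levels, 5 against L.O. columns alone, 10 against Sph.WT columns alone, and 0 to 1 with 1 library left out. Over all genes it was 639, with 359 under library totals, 4023 under DESeq2, 12643 with 3 levels, 7970 against L.O. columns, 13909 against Sph.WT columns, and 0 to 604 with 1 library left out. It was 0 without any 1 capsule, 154 to 240 without any 1 Sph.WT library, and 287, 409 and 604 without L.O. 2, 3 and 1. In the other lists it was 5, with 33 under DESeq2, 103 with 3 levels, 57 against L.O. columns, 112 against Sph.WT columns, and 0 to 6 with 1 library left out. At an unadjusted edgeR p under 0.05 the 3 fits without a capsule held 2448 to 2620 genes. The cause of these moves was not tested.

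Same-numbered libraries of different sets did not deviate together: their 9 correlations ran from -0.43 to 0.24, 2 were above 0.1, and 3 of 18 best matches were with the library's own number. With the replicate block in edgeR, 0 of the 10 genes, 0 genes in all (2856 at an unadjusted p under 0.05) and 0 of the other list genes were called, where edgeR without the block called 639 in all, limma-voom 552 and DESeq2 4023.

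Signs turned for ACTB (0.10) and TPM4 (0.15) against L.O. columns alone, for ACTB over L.O. columns (-0.049) and ACTG1 in L.O. over Sph.WT columns (0.075) with library totals, and for TAGLN over L.O. columns without capsule 3 (0.10) or L.O. 2 (0.09), where its range with 1 library left out was -0.14 to 0.10. None of these 6 values passed the test. The log2 ratio of ACTG1 to ACTB (-0.28) also turned against L.O. columns alone, and those of TPM2 to TPM1 (0.44) and TPM2 to TPM4 (0.25) did against Sph.WT columns alone. Capsules against L.O. columns had 3 to 7 of the 10 genes called with 1 library left out, and 3 without capsule 3 or L.O. 2. Those counts mix directions. MYL9, higher in capsules, was in each of them, and TPM4 rose (0.18) in the fit without L.O. 1. Without capsule 3 or L.O. 2 the genes called lower in capsules were TPM2 and CNN2 alone. For capsules against Sph.WT columns 10 of 10 genes stayed called under every setting run. For L.O. over Sph.WT columns ACTG1 and TAGLN were not called with library totals. TMM scaling moved 20 mean levels by more than their SD and 10 by less, ACTB to 1575 CPM in capsules, 1468 in L.O. columns and 4464 in Sph.WT columns. MYL9 at 3 to 19 counts a library in capsules and L.O. columns, and TAGLN at 3.38 to 5.75 CPM there, are limited by depth.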
